A study of Mus musculus with 16 samples.

Results

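The genes described here are 43 genes of DNA replication and S phase, listed by name, that run from the marking of replication origins to the supply of nucleotides. Their RNA was read in sciatic nerves of mice on Affymetrix arrays that cover the genome, where sets of short probes stand for each gene. Each gene was represented by the brightest of the probe sets named to it alone. On this basis 42 of the 43 genes were measured, and Chaf1a, a subunit of the histone chaperone CAF-1, had no probe set named to it alone. Of the 42, Cdc6 and Tyms averaged 5.30 and 5.16 on the log2 scale, below the filter of 5.37 that was applied to all genes, and 40 were tested together with the rest of 14545 genes.

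WldS mice (C57BL/6 OlaHsd-Wlds, labelled WldS mutant) carry a spontaneous mutation that slows the degeneration of cut axons, and C57BL/6 mice, labelled wild type, were set against them. In each strain the nerve was taken at day 0, without any injury, and 3, 7 and 14 days after a crush of the left nerve at mid-thigh. The mice were 8 to 12 weeks old, 56 of each strain were used, and the tissue was a 4 mm piece of nerve. In injured nerves the piece lay 1 to 5 mm distal to the crush, and no position is given for the uninjured nerves. Nerves were pooled within a group before RNA was extracted, and each of the 8 groups had 2 arrays. No label ties an array to particular mice, so n = 2 pools per group throughout and p-values measure the spread between these pools, which may be technical. The mutant stock has a strain name of its own, so the mutation and other differences between the stocks cannot be told apart.

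Before a cell copies its DNA, the origin recognition complex with Cdc6 and Cdt1 loads the Mcm2 to Mcm7 helicase on origins, which is called licensing. Cdc45, the GINS complex and Mcm10 then turn the helicase on, primase and the polymerases copy both strands on the PCNA clamp, and Fen1 and Lig1 join the pieces of the lagging strand. E2F factors and cyclin E switch most of these genes on at the entry to S phase, so their RNA is a common sign of dividing cells. In the intact adult nerve few cells divide, whereas after a crush Schwann cells divide in the stump that has lost its axons, and macrophages enter it.

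All arrays had median log2 signals between 6.42 and 6.49, and the within-group standard deviation, as a median over genes, lay between 0.061 (C57BL/6 day 7) and 0.145 (WldS day 0). RNA quality was read from the index of 3' over 5' control probe sets. It stood at 3.81 for the first WldS array of day 0 (replicate 1) and at 3.23 for the second WldS array of day 14 (replicate 2), and between 1.63 and 2.46 on the other arrays. The index moved with the time course, at 2.29 to 3.81 on the day 0 arrays, 1.63 to 1.99 at day 3, 1.93 to 2.02 at day 7 and 2.14 to 3.23 at day 14. The nerve's own Schwann cell marker Sox10 lay between log2 11.06 and 12.16 in the 8 groups. Markers of T cells and B cells stayed low, with list means of 5.62 to 6.03 and 5.31 to 5.88 on single arrays, and Cd3g and Cd2 lay below the filter in every group. The list means on single arrays were 12.17 to 12.79 for fibroblast and perineurial markers, 8.04 to 9.30 for endothelial markers, 5.21 to 6.83 for skeletal muscle markers and 8.12 to 10.28 for adipocyte markers. Macrophage and Schwann cell markers moved with the injury, and their values stand beside the results below. Of 5 endothelial markers, 2, 3 and 1 were higher than day 0 at days 3, 7 and 14 in WldS, and 1 was lower at day 14. In C57BL/6, 1 of them was higher at day 7, and 1, 1 and 3 were lower at days 3, 7 and 14. Of 5 fibroblast and perineurial markers, 0, 2 and 1 were higher and 1, 1 and 1 lower in WldS, and 1, 1 and 1 higher and 3, 1 and 2 lower in C57BL/6. Both adipocyte markers were lower at day 7 in WldS and at all 3 days in C57BL/6. The shares of all tested genes called on these days are given below.

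The replication genes rose after the crush in both strains. In WldS, 32 of the 40 tested members were higher at day 3 than at day 0, 30 at day 7 and 29 at day 14, and none was lower. In C57BL/6, 39 were higher at day 3, 32 at day 7 and 24 at day 14, and none was lower. A member was called at limma adjusted p below 0.05, and the share of all tested genes called higher was 20.8%, 21.9% and 12.7% in WldS and 22.6%, 19.6% and 17.1% in C57BL/6 on the same days. The share called lower was 15.2%, 13.3% and 8.56% in WldS and 18.4%, 16.4% and 16.7% in C57BL/6. Over the 42 measured members the median difference from day 0 was 1.03, 0.84 and 0.70 in WldS and 1.37, 0.87 and 0.54 in C57BL/6 on the log2 scale at days 3, 7 and 14, while the median over all tested genes lay between -0.02 and 0.02. In tissue measured whole, more cells of a type and more RNA per cell cannot be told apart.

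The mean over the 42 members shows the same time course on single arrays. In WldS it was 7.27 and 7.30 at day 0, 8.47 and 8.52 at day 3, 8.24 and 8.45 at day 7 and 8.25 and 8.14 at day 14. In C57BL/6 it was 7.27 and 7.26 at day 0, 8.87 and 8.81 at day 3, 8.43 and 8.44 at day 7 and 7.92 and 7.96 at day 14. Both strains started from the same level, the WldS arrays lay below the C57BL/6 arrays at day 3, and they lay above them at day 14. Day 3 was the highest of the 4 time points for 35 members in WldS and for 39 in C57BL/6.

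**Figure D1:**
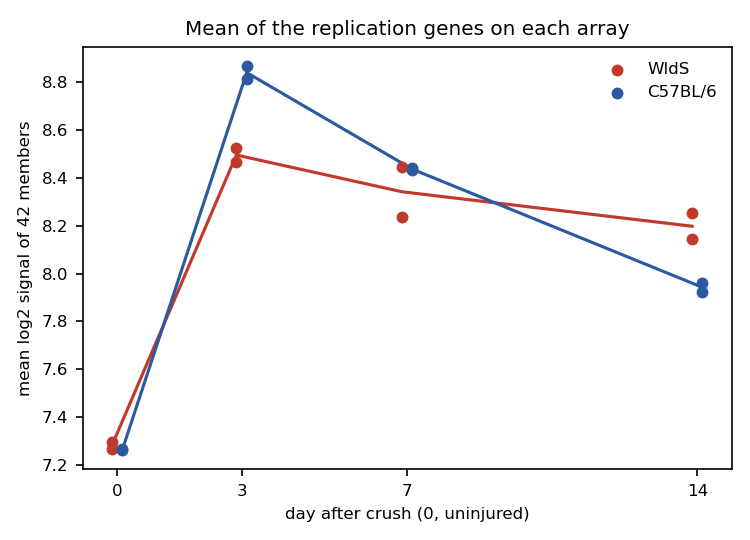
Mean log2 signal of the 42 measured replication genes on each array (y axis) against the day after crush (x axis, day 0 uninjured), with WldS in red, C57BL/6 in blue, points for arrays and lines through group means. The WldS arrays are at 8.47 and 8.52 at day 3 and at 8.25 and 8.14 at day 14, and the C57BL/6 arrays are at 8.87 and 8.81 at day 3 and at 7.92 and 7.96 at day 14.

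Macrophage markers were highest at day 3 as well. The mean log2 level of 7 markers was 8.69 to 8.79 at day 0, 10.98 to 11.21 at day 3, 9.80 to 10.19 at day 7 and 9.47 to 9.48 at day 14 on the WldS arrays. On the C57BL/6 arrays it was 8.74 to 8.95, 10.99 to 11.06, 10.29 to 10.36 and 9.77 to 9.98. The mean of the 4 Schwann cell markers measured here was 10.62 to 10.82, 9.58 to 9.89, 10.60 to 10.65 and 11.25 to 11.39 in WldS, and 10.85 to 10.88, 10.54 to 10.55, 11.25 to 11.42 and 11.48 to 11.58 in C57BL/6. At day 3, 7 of 7 macrophage markers were called higher than at day 0 in WldS and in C57BL/6, and only Itgam of them lay below the filter at day 0. The part of a change in cell makeup in the rise of the replication genes was not tested. With the 3'/5' index as a covariate, chosen after seeing the data, 30 members were higher at day 3 in WldS and 39 in C57BL/6.

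**Figure D2:**
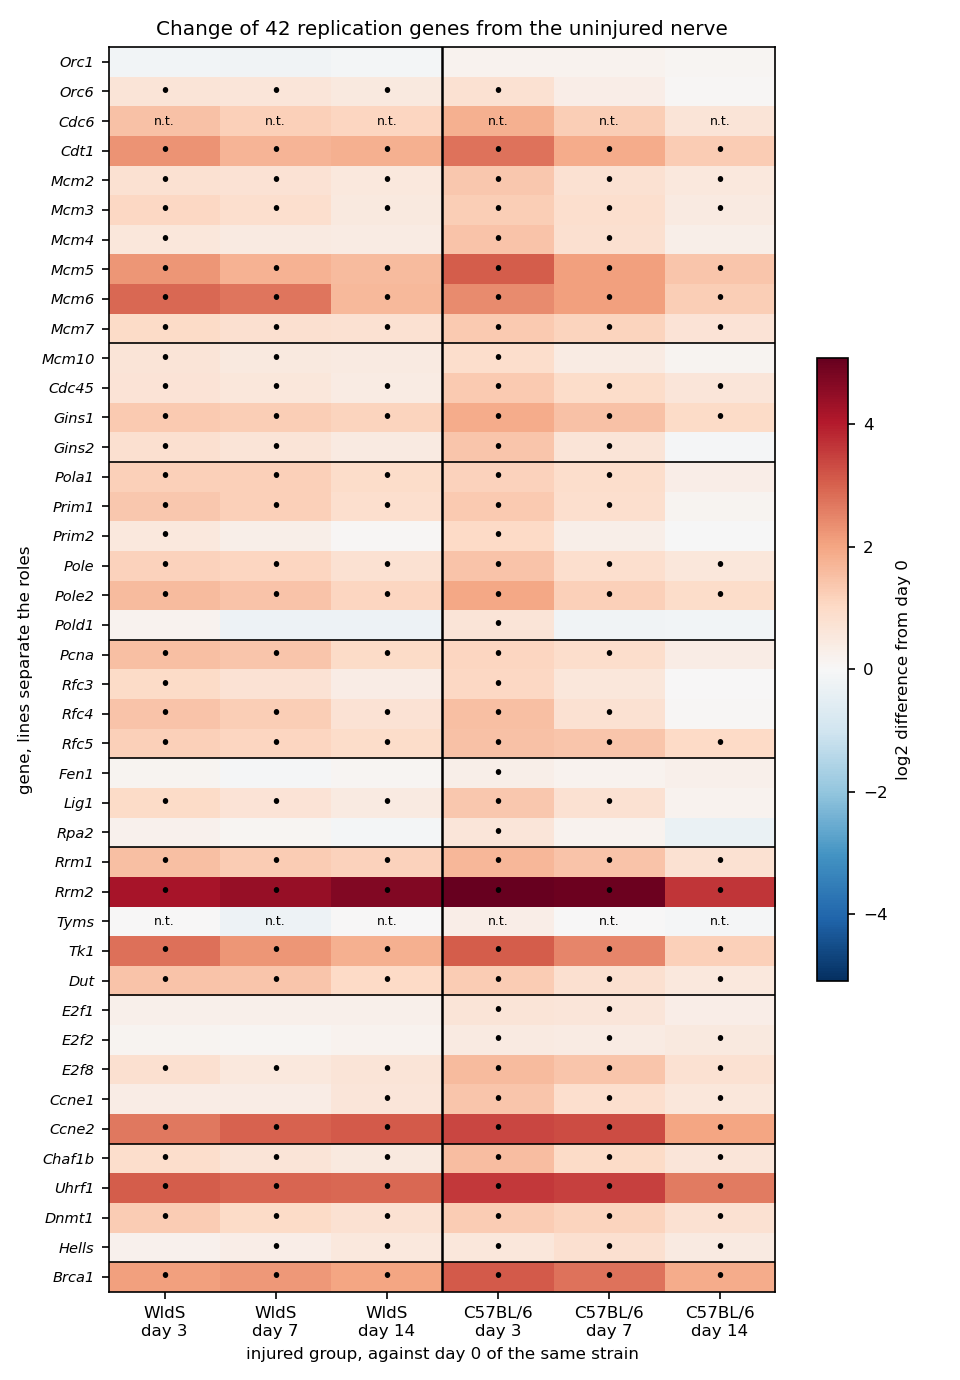
Difference from day 0 of the same strain on the log2 scale (colour) for the 42 measured replication genes, grouped by role, at days 3, 7 and 14 in WldS (left) and C57BL/6 (right). A dot marks an adjusted p below 0.05 and n.t. a gene below the filter. Rrm2, Uhrf1, Ccne2, Tk1, Mcm5 and Brca1 have the deepest colours in C57BL/6 at day 3, and Orc1 has no dot in any column.

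E2F factors bind short words near the start of many replication genes. The promoters of members that rose together and of one not called with the probe set used are shown. The windows, from RefSeq on the GRCm38.p6 build, run from 250 bases before to 50 bases after a start, and 37 of the 43 members had one. The words TTTCCCGC, TTTGGCGC, TTTCGCGC and TTTGCCGC were searched on both strands. One or more of them stood in a window of 16 of 37 members (43.2%), against 704 of 27025 genes (2.6%). The CCAAT box, searched as CCAAT on both strands, was found in 22 of 37 members (59.5%), against 41.1% of genes, and the CHR word TTTGAA in 6 of 37 (16.2%), against 20.2% of genes. None of these words contains another, and E2F words of opposite strands can overlap, as they do in Mcm6 and Mcm5.

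The 250 bases before the start are printed 5' to 3' on the gene's strand, with the E2F words, their reverse complements included, in capitals. They belong to Rrm2 (chr12:24708004-24708253, plus strand), Mcm6 (chr1:128359706-128359955, minus strand), Mcm5 (chr8:75109259-75109508, plus strand), Uhrf1 (its second window, chr17:56304063-56304312, plus strand) and Orc1 (chr4:108579204-108579453, plus strand). They were picked after the values had been seen, to set strong risers with no word, 1 word and several words beside a member that carries a word and was not called with the probe set used.
Rrm2: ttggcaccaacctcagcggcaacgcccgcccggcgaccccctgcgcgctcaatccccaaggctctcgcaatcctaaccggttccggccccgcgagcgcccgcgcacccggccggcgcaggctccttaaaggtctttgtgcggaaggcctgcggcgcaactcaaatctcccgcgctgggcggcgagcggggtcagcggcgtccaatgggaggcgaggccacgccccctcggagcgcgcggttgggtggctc
Mcm6: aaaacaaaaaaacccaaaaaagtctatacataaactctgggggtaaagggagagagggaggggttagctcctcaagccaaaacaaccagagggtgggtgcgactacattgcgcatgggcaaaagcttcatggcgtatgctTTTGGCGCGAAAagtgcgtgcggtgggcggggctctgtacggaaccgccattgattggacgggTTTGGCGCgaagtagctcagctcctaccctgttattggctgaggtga
Mcm5: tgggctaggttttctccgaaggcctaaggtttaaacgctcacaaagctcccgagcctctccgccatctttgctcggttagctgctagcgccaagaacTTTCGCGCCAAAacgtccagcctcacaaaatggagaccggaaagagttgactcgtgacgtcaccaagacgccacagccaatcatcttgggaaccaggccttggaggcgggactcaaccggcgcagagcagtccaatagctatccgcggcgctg
Uhrf1: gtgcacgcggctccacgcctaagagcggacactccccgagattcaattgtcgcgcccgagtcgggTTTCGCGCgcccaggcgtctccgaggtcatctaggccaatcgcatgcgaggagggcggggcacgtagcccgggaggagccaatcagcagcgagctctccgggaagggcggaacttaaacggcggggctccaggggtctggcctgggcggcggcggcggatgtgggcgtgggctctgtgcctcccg
Orc1: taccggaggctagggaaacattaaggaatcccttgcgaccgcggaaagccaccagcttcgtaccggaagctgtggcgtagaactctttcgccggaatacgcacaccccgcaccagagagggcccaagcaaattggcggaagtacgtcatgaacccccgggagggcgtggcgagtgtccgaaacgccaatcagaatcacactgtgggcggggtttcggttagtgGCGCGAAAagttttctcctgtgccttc

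Mcm6 holds 3 such words, Mcm5 holds 2 that overlap, and Uhrf1 and Orc1 hold 1 each. Rrm2, the member with the largest rise, holds none of the searched words in these bases. At day 3 the median difference from day 0 was 1.14 in WldS and 1.31 in C57BL/6 over the 16 members with a word, and 0.85 and 1.35 over the 20 measured members without one. A match is a description of the letters only.

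Among the licensing genes, 8 of 9 tested members were higher at day 3 in WldS and 8 of 9 in C57BL/6. Mcm5, a helicase subunit, had the largest rise of the group in C57BL/6. Its log2 signal in WldS was 7.76 and 7.09 at day 0, 9.66 and 9.70 at day 3, 9.03 and 9.35 at day 7 and 8.95 and 9.11 at day 14. In C57BL/6 it was 6.99 and 7.03, 10.14 and 10.00, 9.02 and 9.14, and 8.40 and 8.44. No array of an injured nerve reached down to the uninjured ones in either strain. Mcm5 was 2.26 ± 0.17 (SE) higher at day 3 in WldS, 4.78-fold, and 3.06 ± 0.17 higher in C57BL/6, 8.36-fold (adjusted p = 2.7e-07 and 8.21e-09).

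Mcm6, another helicase subunit, rose by 2.91 ± 0.31 at day 3 in WldS and by 2.41 ± 0.31 in C57BL/6. Cdt1, which brings the helicase to the origin, rose by 2.26 ± 0.17 in WldS and by 2.75 ± 0.17 in C57BL/6. The other helicase subunits Mcm2, Mcm3, Mcm4 and Mcm7 rose by 0.59 (Mcm4) to 1.07 (Mcm3) in WldS and by 1.26 (Mcm3) to 1.47 (Mcm4) in C57BL/6, and Orc6, a further subunit of the origin complex, by 0.67 ± 0.14 and 0.78 ± 0.14. At day 14 Mcm2, Mcm3, Mcm5, Mcm6 and Mcm7 were still above day 0 in both strains, and Mcm4 was called in neither. Orc1, the largest subunit of the origin recognition complex, was the one tested member not called at day 3 in C57BL/6, and it was not called at day 3 in WldS. Its log2 signal was 6.95 and 6.73 at day 0, 6.69 and 6.69 at day 3, 6.66 and 6.68 at day 7 and 6.67 and 6.85 at day 14 in WldS, and 6.55 and 6.49, 6.68 and 6.69, 6.65 and 6.75, and 6.59 and 6.68 in C57BL/6. The whole range of Orc1 over 16 arrays was thus smaller than the day 3 difference of any called licensing gene. The Orc1 difference at day 3 was -0.15 ± 0.11 in WldS (adjusted p = 0.312) and 0.16 ± 0.11 in C57BL/6 (adjusted p = 0.264), and its other probe set gave 0.27 and 0.55. Over the alternatives described below, the C57BL/6 difference of Orc1 reached 0.35, and its lowest adjusted p was 0.00311. Cdc6, the loader that works with Cdt1, was left out by the filter, and its signal was 4.36 and 4.29 at day 0 and 5.76 and 5.89 at day 3 in WldS, and 4.39 and 4.39 at day 0 and 6.08 and 6.28 at day 3 in C57BL/6.

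All 4 helicase activators were higher at day 3 in both strains. Gins1, a subunit of the GINS complex, had 6.10 and 6.30 at day 0, 7.48 and 7.62 at day 3, 7.37 and 7.50 at day 7 and 7.40 and 7.25 at day 14 in WldS. In C57BL/6 its signal was 6.01 and 6.11, 8.01 and 7.92, 7.54 and 7.57, and 6.89 and 7.17. The day 3 rise was 1.35 ± 0.12 in WldS and 1.91 ± 0.12 in C57BL/6 (adjusted p = 1.58e-06 and 2.91e-08). Mcm10, which joins the helicase to the polymerase that starts the strands, had the smallest rise of the group. Mcm10 was at 7.50 and 7.25 at day 0, 7.95 and 8.11 at day 3, 7.92 and 7.83 at day 7 and 7.79 and 7.86 at day 14 in WldS, and at 7.62 and 7.14, 8.46 and 8.11, 7.87 and 7.70, and 7.52 and 7.50 in C57BL/6. Its day 14 arrays lay within the day 0 range in C57BL/6 and above it in WldS, and at day 14 Mcm10 was called in neither strain. Cdc45, the helicase partner, rose by 0.68 ± 0.13 at day 3 in WldS and by 1.32 ± 0.13 in C57BL/6, and Gins2, another GINS subunit, by 0.83 ± 0.18 and 1.40 ± 0.18. The other Cdc45 probe set gave -0.05 in WldS and 0.12 in C57BL/6, and that of Gins2 gave 1.38 and 1.55.

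Of the 6 polymerase and primase genes, 5 were higher at day 3 in WldS and 6 in C57BL/6. Pole2, the small core subunit of the polymerase of the leading strand, had 6.57 and 6.65 at day 0, 8.13 and 8.32 at day 3, 7.89 and 8.26 at day 7 and 7.83 and 7.59 at day 14 in WldS. In C57BL/6 Pole2 had 6.53 and 6.46, 8.50 and 8.41, 7.74 and 7.69, and 7.34 and 7.49. Pole2 stayed above its uninjured level on every injured array, and its day 3 rise was 1.62 ± 0.14 in WldS and 1.96 ± 0.14 in C57BL/6 (adjusted p = 6.45e-07 and 5.31e-08). Pold1, the catalytic subunit of the polymerase of the lagging strand, behaved otherwise. Its signal was 7.93 and 7.75 at day 0, 8.11 and 7.96 at day 3, 7.40 and 7.73 at day 7 and 7.42 and 7.72 at day 14 in WldS, and 7.56 and 7.52, 8.40 and 7.99, 7.36 and 7.35, and 7.51 and 7.31 in C57BL/6. Pold1 differed by 0.19 ± 0.16 at day 3 in WldS (adjusted p = 0.374), rose by 0.66 ± 0.16 in C57BL/6 (adjusted p = 0.00383), and was not called against day 0 at day 7 or 14 in either strain. The Pold1 probe set used has the suffix _x_at, and with the gene's other probe set the day 3 rise was called in both strains, by 0.53 in WldS (adjusted p = 0.0116) and 0.73 in C57BL/6 (adjusted p = 0.000996). Pola1, of the polymerase that starts the strands, and Prim1, the catalytic primase subunit, rose by 1.22 ± 0.14 and 1.39 ± 0.13 in WldS and by 1.15 ± 0.14 and 1.33 ± 0.13 in C57BL/6. Prim2, the large primase subunit, rose by 0.55 ± 0.15 in WldS and by 1.03 ± 0.15 in C57BL/6 and was called at day 3 alone in each strain, and Pole, the catalytic partner of Pole2, rose by 1.18 ± 0.15 and 1.46 ± 0.15.

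The clamp and its loader rose at day 3 in both strains, with all 4 members called. Pcna, the sliding clamp that holds the polymerases on DNA, had 10.15 and 10.98 at day 0, 12.12 and 12.04 at day 3, 11.71 and 12.24 at day 7 and 11.94 and 11.18 at day 14 in WldS. In C57BL/6 Pcna had 11.16 and 11.24, 12.21 and 12.34, 12.03 and 12.18, and 11.65 and 11.53. The day 3 rise was 1.52 ± 0.26 in WldS and 1.07 ± 0.26 in C57BL/6, and the lowest WldS array of day 0 is the one with the index of 3.81, and that of day 14 the one with the index of 3.23. Rfc4, a subunit of the complex that loads the clamp, rose by 1.46 ± 0.19 in WldS and by 1.53 ± 0.19 in C57BL/6, on arrays at 5.84 and 6.18 at day 0 and 7.44 and 7.51 at day 3 in WldS, and at 6.53 and 6.35 at day 0 and 7.80 and 8.14 at day 3 in C57BL/6. Rfc3, of the same complex, had 5.27 and 6.08 at day 0 and 6.57 and 6.74 at day 3 in WldS, and 5.56 and 6.19 at day 0 and 7.09 and 6.76 at day 3 in C57BL/6. Its rise of 0.98 ± 0.28 in WldS and 1.06 ± 0.28 in C57BL/6 had the widest error of the 4. Rfc5, also of the loader, rose by 1.23 ± 0.12 in WldS and by 1.51 ± 0.12 in C57BL/6, and it was the one gene of the group still called at day 14 in C57BL/6, with 0.94 ± 0.12 above day 0 in WldS and 1.03 ± 0.12 in C57BL/6.

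**Figure D3:**
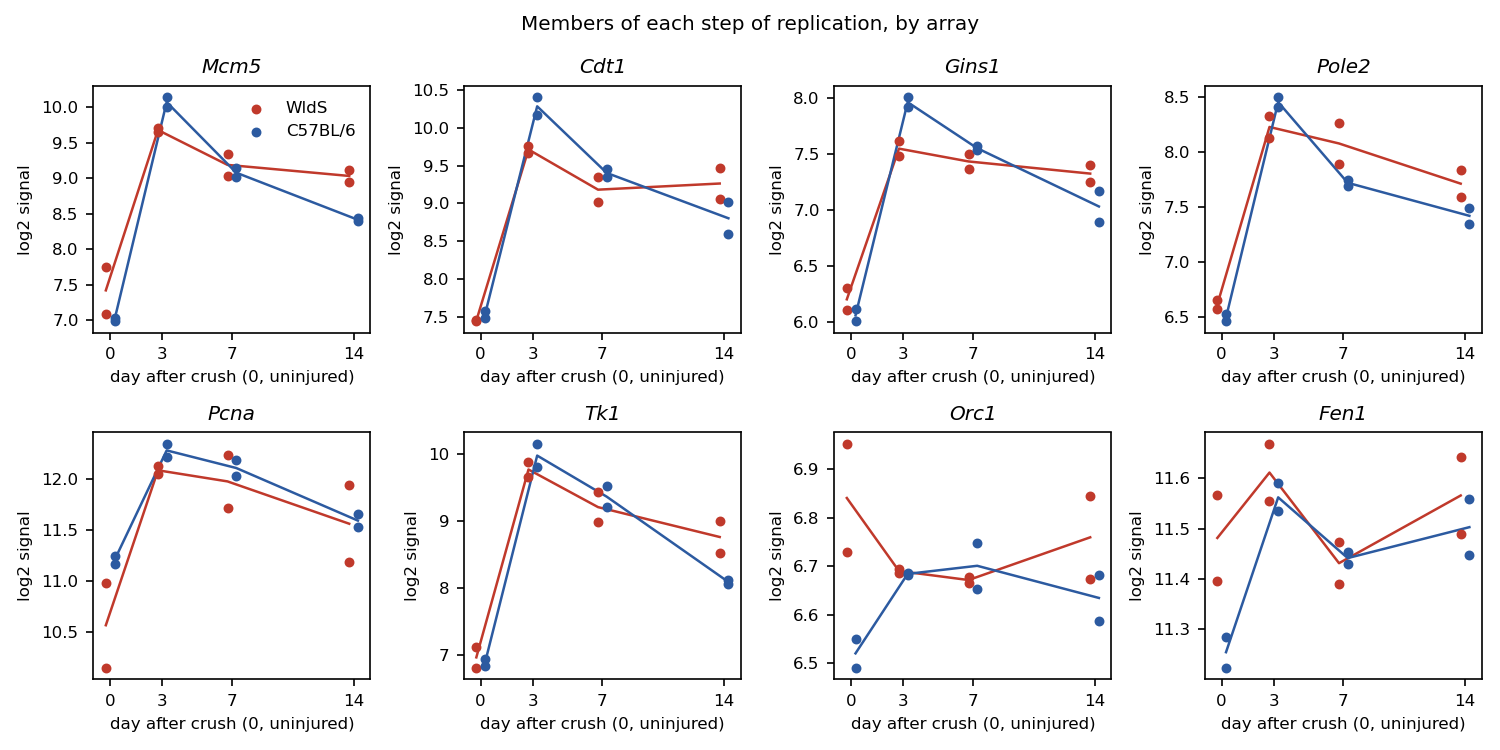
Log2 signal on each array (y axis) against the day after crush (x axis, day 0 uninjured) for 8 members, with WldS in red, C57BL/6 in blue, points for arrays and lines through group means; each panel has its own y range. Mcm5, Cdt1, Gins1, Pole2, Pcna and Tk1 lie highest at day 3, while Orc1 spans 6.49 to 6.95 and Fen1 11.22 to 11.67 over all arrays.

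Lig1, the ligase that seals the lagging strand, was at 8.18 and 8.16 at day 0 and 9.15 and 9.15 at day 3 in WldS, and at 8.17 and 8.15 at day 0 and 9.62 and 9.45 at day 3 in C57BL/6. The rise was 0.98 ± 0.14 in WldS and 1.38 ± 0.14 in C57BL/6 (adjusted p = 7.42e-05 and 1.78e-06), and no array of day 3 overlapped those of day 0. Fen1, which trims the flaps before ligation, had 11.40 and 11.57 at day 0 and 11.55 and 11.67 at day 3 in WldS, and 11.22 and 11.29 at day 0 and 11.59 and 11.53 at day 3 in C57BL/6. The WldS arrays of both days overlapped, with a difference of 0.13 ± 0.11 (adjusted p = 0.379), and Fen1 was higher by 0.31 ± 0.11 in C57BL/6 (adjusted p = 0.0339). The Fen1 probe set used here carries the suffix _x_at, given where some probes also match other transcripts, and the gene's other probe set gave a rise that was called in both strains, 1.87 in WldS (adjusted p = 8.17e-05) and 1.68 in C57BL/6 (adjusted p = 0.000141). Rpa2, a subunit of the single-strand binding protein, differed by 0.21 ± 0.17 at day 3 in WldS (adjusted p = 0.378) and rose by 0.60 ± 0.17 in C57BL/6 (adjusted p = 0.0125), and these changes were not called as different from each other.

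The nucleotide supply genes held the largest rise of all members. Rrm2, the small subunit of ribonucleotide reductase that is made in S phase, had 6.04 and 5.72 at day 0, 9.98 and 10.20 at day 3, 10.39 and 10.22 at day 7 and 10.64 and 10.54 at day 14 in WldS. In C57BL/6 it had 6.10 and 5.89, 11.02 and 11.14, 10.90 and 11.08, and 9.65 and 9.61. At day 3 Rrm2 was higher by 4.21 ± 0.14 in WldS, 18.4-fold, and by 5.08 ± 0.14 in C57BL/6, 33.9-fold (adjusted p = 2.85e-10 and 6.12e-12). The highest Rrm2 mean of the time course was at day 14 in WldS and at day 3 in C57BL/6 with the probe set used. In WldS the other probe sets of Rrm2 were highest at day 7 and at day 3, with 3.42, 3.77 and 3.58 above day 0 at days 3, 7 and 14 on one and 1.70, 1.48 and 1.30 on the other. The probe set used for Rrm2 also has the suffix _x_at, and in C57BL/6 the others gave 4.57, 4.65 and 3.20 and 2.38, 2.02 and 0.85 at these days.

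Tk1, the thymidine kinase of S phase, rose by 2.81 ± 0.20 at day 3 in WldS and by 3.09 ± 0.20 in C57BL/6. Rrm1, the large subunit of the reductase, was 8.76 and 8.70 at day 0 and 10.25 and 10.30 at day 3 in WldS, and 8.86 and 8.96 at day 0 and 10.56 and 10.62 at day 3 in C57BL/6. Dut, which keeps uracil out of DNA, had the smallest called rise of the group in C57BL/6, on arrays at 7.23 and 7.34 at day 0 and 8.66 and 8.79 at day 3 in WldS, and at 7.49 and 7.76 at day 0 and 8.89 and 8.97 at day 3 in C57BL/6. All 4 tested genes of the group were still higher than at day 0 at day 14 in both strains. Tyms, the thymidylate synthase, lay below the filter with its own probe sets. A probe set that it shares with the pseudogene Tyms-ps averaged 6.88, 8.40, 7.92 and 7.60 over the 4 time points in WldS and 6.67, 8.73, 7.82 and 6.97 in C57BL/6, and reads of the 2 cannot be told apart there.

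With the probe sets used, 2 of 5 E2F and cyclin E genes were higher at day 3 in WldS and 5 of 5 in C57BL/6. Ccne2, a cyclin E that drives the entry into S phase, had 4.64 and 4.50 at day 0, 7.14 and 7.37 at day 3, 7.34 and 7.81 at day 7 and 7.88 and 7.48 at day 14 in WldS, and 4.67 and 4.80, 8.02 and 8.20, 8.00 and 8.10, and 6.76 and 6.68 in C57BL/6. It lay below the filter at day 0 in both strains, as Uhrf1 and Brca1 did, and Chaf1b did so in C57BL/6. The rises of these genes may therefore be understated by the probe sets used. The Ccne2 rise at day 3 was 2.69 ± 0.17 in WldS and 3.38 ± 0.17 in C57BL/6 (adjusted p = 3.74e-08 and 1.73e-09). E2f2, an activating E2F, had 6.79 and 7.05 at day 0 and 7.07 and 7.10 at day 3 in WldS, and 6.68 and 6.74 at day 0 and 7.24 and 7.11 at day 3 in C57BL/6. It differed by 0.16 ± 0.11 in WldS (adjusted p = 0.293) and rose by 0.47 ± 0.11 in C57BL/6 (adjusted p = 0.00323). E2f1, another activating E2F, and Ccne1, the other cyclin E, differed by 0.26 ± 0.13 and 0.37 ± 0.21 at day 3 in WldS and rose by 0.64 ± 0.13 and 1.40 ± 0.21 in C57BL/6. Other E2f1 probe sets gave 0.62 and 0.12 in WldS and 1.35 and 0.14 in C57BL/6. The other Ccne1 probe set gave 0.57 in WldS and 1.16 in C57BL/6.

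Of the 4 tested genes of chromatin and DNA methylation, 3 were higher at day 3 in WldS and 4 in C57BL/6. Uhrf1, which brings the maintenance methyltransferase to newly copied DNA, had 5.34 and 4.80 at day 0, 8.04 and 8.23 at day 3, 8.04 and 8.00 at day 7 and 8.16 and 7.84 at day 14 in WldS. In C57BL/6 Uhrf1 had 5.20 and 5.15, 8.69 and 8.87, 8.74 and 8.57, and 7.78 and 7.83. With the probe set used the rise at day 3 was 3.07 ± 0.16 in WldS and 3.61 ± 0.16 in C57BL/6 (adjusted p = 9.33e-09 and 8.49e-10). The other Uhrf1 probe set gave 0.88 in WldS and 1.61 in C57BL/6. Hells, a chromatin remodeller of DNA methylation, had 7.93 and 7.70 at day 0 and 7.97 and 8.06 at day 3 in WldS, and 7.60 and 7.67 at day 0 and 8.24 and 8.16 at day 3 in C57BL/6. Its probe set used here gave 0.20 ± 0.11 in WldS (adjusted p = 0.191) and 0.56 ± 0.11 in C57BL/6 (adjusted p = 0.000996), and another gave 2.45 and 2.79. Dnmt1, the maintenance methyltransferase, rose by 1.30 ± 0.11 in WldS and by 1.28 ± 0.11 in C57BL/6, and Chaf1b, a subunit of CAF-1, by 0.90 ± 0.14 and 1.56 ± 0.14. The other Chaf1b probe set gave -0.08 in WldS and 0.06 in C57BL/6. Brca1, a repair factor that protects stalled forks, had 5.30 and 5.35 at day 0, 7.45 and 7.39 at day 3, 7.57 and 7.46 at day 7 and 7.36 and 7.27 at day 14 in WldS, and 5.11 and 5.37, 8.23 and 8.46, 7.88 and 8.13, and 7.12 and 7.16 in C57BL/6. At day 3 the Brca1 rise was 2.09 ± 0.13 in WldS and 3.11 ± 0.13 in C57BL/6, with no overlap of the strains' arrays at that day. The other Brca1 probe set above the filter gave -0.04 in both strains at day 3, and the mean over all Brca1 probe sets gave 0.55 in WldS and 1.02 in C57BL/6.

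Between successive days, members were called lower in C57BL/6 and not in WldS, and the test of the difference between the strains stands further on. From day 3 to day 7, 0 of 40 members were called lower in WldS and 19 in C57BL/6, where 3.58% and 10.7% of all tested genes fell. In WldS 6 members had an unadjusted p below 0.05 by limma, a threshold at which the share of all tested genes was not taken. The median over the 42 members was -0.15 in WldS, with 4 above 0, and -0.42 in C57BL/6, with 2 above 0. From day 7 to day 14, 0 members were called lower in WldS (3.62% of tested genes) and 15 in C57BL/6 (2.79% of tested genes), with 7 WldS members at an unadjusted p below 0.05 and medians of -0.15 in WldS and -0.48 in C57BL/6. These counts depend on single arrays. The first of the C57BL/6 counts was 6, 12, 8 and 7 without day 3 replicate 1, day 3 replicate 2, day 7 replicate 1 or day 7 replicate 2 of that strain, and the second was 6, 7 and 5 without day 7 replicate 1, day 7 replicate 2 or day 14 replicate 1. In WldS the first count was 3 without day 7 replicate 2 and 1 without either day 0 array, and the second was 3 without day 7 replicate 1 and 1 without either day 0 array or day 14 replicate 1.

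Rrm2, Ccne2 and Tk1 were the 3 members that fell by 2-fold or more in C57BL/6 between day 7 and day 14. In WldS these genes differed by 0.29 ± 0.14, 0.11 ± 0.17 and -0.45 ± 0.20 between these days, and none was called (adjusted p = 0.279, 0.778 and 0.239). In C57BL/6 Rrm2 fell by 1.36 ± 0.14 (adjusted p = 2.71e-05), Ccne2 fell by 1.33 ± 0.17 (adjusted p = 0.000191) and Tk1 fell by 1.27 ± 0.20 (adjusted p = 0.0011). Over the 42 members the median of day 14 minus day 3 was -0.29 in WldS and -0.90 in C57BL/6, and 36 members in WldS and 41 in C57BL/6 were lower at day 14 than at day 3.

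Before injury no member was called between the strains, where 0.227% of all tested genes were. At an unadjusted p below 0.05 by limma there were 10 members, and the share of all tested genes at that threshold was not taken. Without WldS day 0 replicate 2, whose partner has the index of 3.81, 4 members were higher and 3 lower in WldS. At day 3 members were lower in WldS than in C57BL/6, with 7 of 40 called lower and none higher, where 4.62% of all tested genes were lower and 4.82% higher. The median over the 42 members was -0.31, against 0.00 over all tested genes, and 40 of the 42 lay below 0.

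The 7 genes were Rrm2, Brca1, Ccne2, Ccne1, Uhrf1, Cdt1 and Cdc45. Rrm2 was lower in WldS by 0.99 ± 0.14 on the log2 scale (adjusted p = 0.000265), Brca1 by 0.93 ± 0.13 (adjusted p = 0.000261), Ccne2 by 0.86 ± 0.17 (adjusted p = 0.00368) and Ccne1 by 0.73 ± 0.21 (adjusted p = 0.0406). Uhrf1 was lower by 0.64 ± 0.16 (adjusted p = 0.021), Cdt1 by 0.57 ± 0.17 (adjusted p = 0.0469) and Cdc45, the helicase activator, by 0.46 ± 0.13 (adjusted p = 0.0376). With the mean of its probe sets the Brca1 difference was -0.33 (adjusted p = 0.0458), and its other probe set above the filter gave 0.09. The other Cdc45 probe set gave 0.04. Other probe sets above the filter gave -1.17 and -0.57 for Rrm2, -0.47 for Ccne1, -0.51 for Uhrf1 and -0.69 for Cdt1. The share of all tested genes whose arrays did not overlap was not taken. For each of the 7 called genes the WldS arrays of day 3 lay below both C57BL/6 arrays, which their call in this comparison makes likely. Without WldS day 3 replicate 1 the count was 2, without replicate 2 of that group 3, and without C57BL/6 day 3 replicate 1 or 2 it was 3 or 4. It was 11 without both arrays of high 3'/5' index. At day 3 the 7 macrophage markers had 0 called higher and 1 lower in WldS than in C57BL/6, and the 4 Schwann cell markers had 1 higher and 1 lower. Of these, Ngfr, which injured Schwann cells switch on, averaged 7.66 in WldS and 11.33 in C57BL/6, and the part of this in the member differences was not tested.

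**Figure D4:**
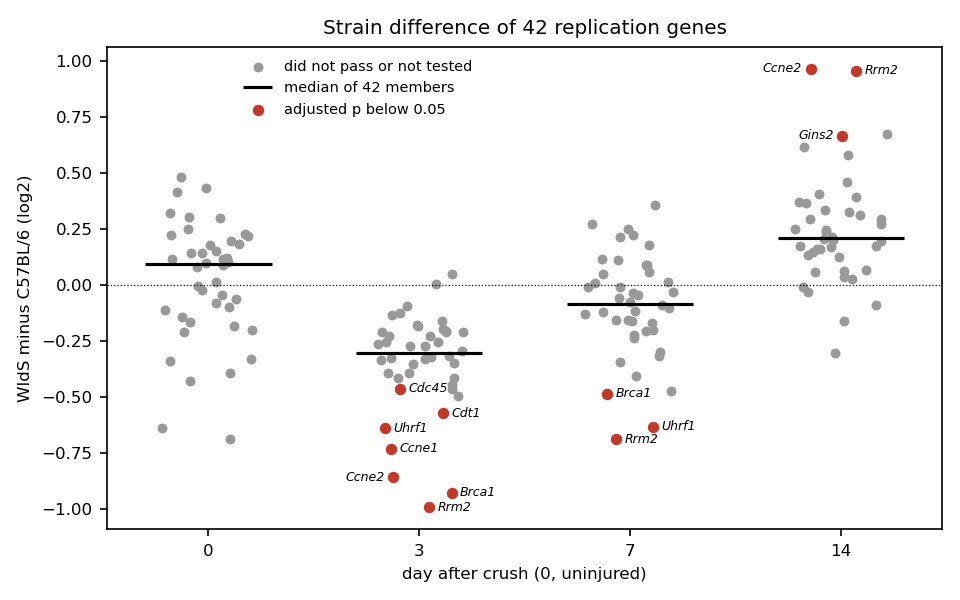
WldS minus C57BL/6 on the log2 scale (y axis) at each time point (x axis) for the 42 measured members, spread sideways for legibility; the black line is their median and red points have an adjusted p below 0.05. The median is -0.31 at day 3 and 0.21 at day 14, with 7 members called lower at day 3, 3 lower at day 7 and 3 higher at day 14.

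At day 7, 3 members were lower in WldS and none higher, where 2.97% of all tested genes were lower and 3.86% higher. Rrm2 was lower by 0.69 ± 0.14 (adjusted p = 0.00594), Uhrf1 by 0.63 ± 0.16 (adjusted p = 0.0278) and Brca1 by 0.49 ± 0.13 (adjusted p = 0.0327). Without C57BL/6 day 7 replicate 2 none was called, and without WldS day 7 replicate 1 or 2 the count was 1. At day 7, 2 of 7 macrophage and 2 of 4 Schwann cell markers were lower and 1 Schwann cell and 2 of 5 endothelial markers higher in WldS. At day 14 the direction had turned with the probe sets used, with 3 members higher in WldS and none lower, where 2.9% of all tested genes were higher and 3.55% lower. Ccne2 was higher in WldS by 0.96 ± 0.17 (adjusted p = 0.0031), Rrm2 by 0.96 ± 0.14 (adjusted p = 0.00095) and Gins2, a GINS subunit, by 0.66 ± 0.18 (adjusted p = 0.0478). With the brightest Rrm2 probe set that does not end in _x_at the difference was 0.37 and was not called (adjusted p = 0.435), and the third Rrm2 probe set gave 0.56. Gins2 had 8.35 and 8.34 at day 14 in WldS, against 7.41 and 7.96 in C57BL/6, where its day 0 arrays were at 7.62 and 7.87. At day 14, 2 of 7 macrophage markers and 1 of 4 Schwann cell markers were lower in WldS and none higher, and their part in the member differences at days 7 and 14 was not tested. Over the 42 members the median at day 14 was 0.21, against 0.02 over all tested genes, and 37 lay above 0. Over the 36 other probe sets of members above the filter the median was 0.05, with 24 above 0. Of these 36, 20 had the sign of the gene's used probe set, so the turn rests in part on the probe sets chosen. The count of members called higher at day 14 was 6 without either WldS day 0 array and 5 without either WldS day 7 array, which enter this comparison through the shared estimate of the spread.

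**Figure D5:**
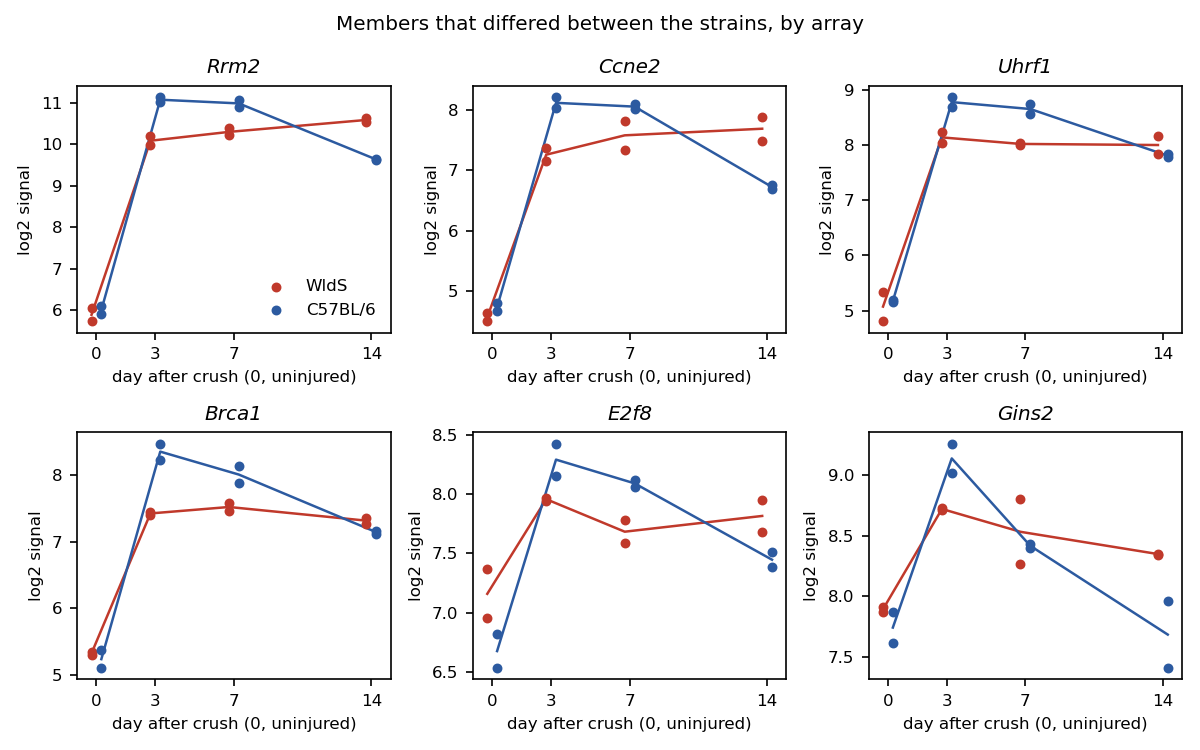
Log2 signal on each array (y axis) against the day after crush (x axis, day 0 uninjured) for 6 members named in the strain comparisons, with WldS in red, C57BL/6 in blue, points for arrays and lines through group means; each panel has its own y range. Rrm2 and Ccne2 lie lower in WldS at day 3 and higher in WldS at day 14. The group means of E2f8 start higher and peak lower in WldS, though E2f8 was not called between the strains at any time.

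Whether the change itself differed between the strains was tested as an interaction, the WldS change minus the C57BL/6 change. At day 3 against day 0, Brca1 rose less in WldS by 1.01 ± 0.18 (adjusted p = 0.00349), Rrm2 by 0.88 ± 0.19 (adjusted p = 0.0147) and E2f8, a repressive E2F, by 0.82 ± 0.22 (adjusted p = 0.0449). Brca1 lay below the filter at day 0 in both strains, so its value rests on changes that may be understated. With the mean of its probe sets the Brca1 interaction was -0.47 and was not called (adjusted p = 0.0693), and the other Brca1 probe set above the filter gave 0.00090. These were 3 of 40 members, where 2.15% of all tested genes had a lower interaction, and the count was 7 without WldS day 0 replicate 2, 1 without WldS day 3 replicate 1 and 5 without either WldS day 7 array. E2f8 had 7.37 and 6.95 at day 0, 7.94 and 7.97 at day 3, 7.59 and 7.78 at day 7 and 7.68 and 7.95 at day 14 in WldS, against 6.53 and 6.82, 8.43 and 8.16, 8.12 and 8.06, and 7.51 and 7.39 in C57BL/6. Its WldS arrays thus lay above the C57BL/6 arrays at day 0 and below them at days 3 and 7, but E2f8 was not called between the strains at any time. The higher WldS array of day 0 is the one with the 3'/5' index of 3.81. At day 7 against day 0, E2f8 alone was called, lower by 0.89 ± 0.22 (adjusted p = 0.0383, with 1.22% of tested genes), and that call was lost without any 1 of 9 arrays, while 6 members were called without WldS day 0 replicate 2.

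At day 14 against day 0, Ccne2 was higher in WldS by 1.13 ± 0.23 (adjusted p = 0.0269) and Rrm2 by 1.07 ± 0.19 (adjusted p = 0.0134), 2 of 40 members where 0.908% of tested genes were higher. Ccne2 lay below the filter at day 0 in both strains, as Brca1 did. That count was 0 without C57BL/6 day 0 replicate 1, either C57BL/6 day 14 array or WldS day 14 replicate 1, and 1 without C57BL/6 day 0 replicate 2. Between day 7 and day 14 the interaction was 1.64 ± 0.19 for Rrm2 (adjusted p = 0.000253) and 1.44 ± 0.23 for Ccne2 (adjusted p = 0.00376), 2 of 40 members where 0.626% of tested genes were higher, and leaving out any 1 array gave 2 or 3. Between day 3 and day 7 no member was called (2.28% of tested genes in either direction), with 6 at an unadjusted p below 0.05 by limma and 2 called without WldS day 7 replicate 1. At that unadjusted threshold the share of all tested genes was not taken. The other probe sets of Rrm2 gave 0.39 and 0.45 for the interaction of day 14 against day 0 and 1.27 and 0.99 for that of day 14 against day 7. With the brighter of them neither interaction was called (adjusted p = 0.78 and 0.141).

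The members called in the 2 strains, which share no array, were set side by side. All 32 members called higher in WldS at day 3 were called in C57BL/6 as well, which is 82.1% of the C57BL/6 list, and with 39 of 40 called in C57BL/6 an overlap near this size was fixed by the counts. The 7 called in C57BL/6 alone were Ccne1, E2f1, E2f2, Fen1, Hells, Pold1 and Rpa2, and this list rests in part on the probe sets used. With other probe sets above the filter the WldS difference at day 3 was 1.87 for Fen1, 2.45 for Hells, 0.53 for Pold1 and 0.57 for Ccne1. It was 0.62 and 0.12 for E2f1 and 0.27 for Rpa2. At day 14, 23 members were called in both strains, 79.3% of the WldS list and 95.8% of the C57BL/6 list. With 29 of 40 called in WldS and 24 in C57BL/6, a large part of this overlap also follows from the counts. The share of all tested genes called in both strains was not taken at either day. Orc6, Pola1, Prim1, Pcna, Rfc4 and Lig1 were called at day 14 in WldS alone, and E2f2 in C57BL/6 alone. These are 13 genes, with E2f2 at both days, and none was called in the interaction of its day.

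Probe sets of one gene often differed in size and sometimes in the strain's direction. Besides those used, 36 probe sets of 27 members lay above the filter. At day 3, 30 of the 36 had the sign of the gene's used probe set in WldS and 33 in C57BL/6, and for the strain difference at day 3 it was 30. For the strain difference at day 0 it was 15 and at day 14 it was 20. Mcm6 is one case, with -0.69 for WldS minus C57BL/6 at day 0 from the probe set used and 0.38 from another, and -0.31 and 0.73 at day 14. Mcm2 gave a day 3 difference of 0.79 in WldS and 1.37 in C57BL/6 with the probe set used, and of 2.47 and 2.75 with another.

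Other genes that work beside the members were called to different degrees, where 20.8% of all tested genes were higher at day 3 in WldS and 22.6% in C57BL/6. Of 25 further genes of the replication machinery tested, 12 were higher and 2 lower at day 3 in WldS, and 15 higher and none lower in C57BL/6. Dbf4, the partner of the kinase Cdc7 that fires origins, rose by 3.31 ± 0.14 in WldS and by 3.33 ± 0.14 in C57BL/6, and Dna2, a nuclease of flap processing, rose by 2.36 ± 0.16 and 2.34 ± 0.16. Cdc7 itself rose by 1.66 ± 0.20 in WldS and by 2.29 ± 0.20 in C57BL/6, and it was lower in WldS at day 3 by 0.71 ± 0.20 (adjusted p = 0.0421). Among 6 genes that restrain licensing or belong to the Cul4 ligase, 4 rose at day 3 in each strain. Gmnn, the inhibitor of Cdt1, rose by 1.74 ± 0.18 in WldS and by 2.24 ± 0.18 in C57BL/6, and Dtl, which marks Cdt1 for destruction, rose by 1.53 ± 0.14 and 2.04 ± 0.14. All 4 S-phase kinase and cyclin genes rose in both strains, led by Ccna2, cyclin A, with 2.99 ± 0.14 in WldS and 3.78 ± 0.14 in C57BL/6.

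Of 12 other E2F and pocket protein genes, 6 were higher and 1 lower at day 3 in each strain. Rbl1, a pocket protein that E2F itself switches on, rose by 2.17 ± 0.22 in WldS and by 2.18 ± 0.22 in C57BL/6, and E2f7, a repressive E2F, by 1.62 ± 0.14 and 2.13 ± 0.14. Of 7 genes of nucleotide turnover, 2 were higher and 1 lower in WldS and 3 higher and 1 lower in C57BL/6. Dck, the deoxycytidine kinase of the salvage route, rose by 3.18 ± 0.40 and 3.28 ± 0.40, and Samhd1, which breaks nucleotides down, rose by 2.18 ± 0.16 in WldS and by 1.27 ± 0.16 in C57BL/6. Rrm2b, the reductase subunit used outside S phase, fell by 0.44 ± 0.12 in WldS and by 1.11 ± 0.12 in C57BL/6, opposite to Rrm2. Of 11 genes of replication chromatin, 3 were higher in WldS and 3 higher and 1 lower in C57BL/6, with Nasp, a histone chaperone, up by 1.53 ± 0.12 and 1.77 ± 0.12. The counts of nucleotide turnover and replication chromatin lie near the shares of all tested genes.

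Mitosis genes, which act after S phase, rose too. At day 3, 18 of 19 were higher than at day 0 in WldS and 19 of 19 in C57BL/6, where 20.8% and 22.6% of all tested genes were. At that day 12 of 19 were lower in WldS than in C57BL/6, where 4.62% of all tested genes were. Mki67, the proliferation marker, averaged 6.56, 10.74, 10.73 and 10.62 over the 4 time points in WldS and 6.37, 11.48, 11.36 and 10.38 in C57BL/6, and at day 3 it was lower in WldS by 0.74 ± 0.17 (adjusted p = 0.012). Top2a, which untangles DNA before division, was lower in WldS by 0.79 ± 0.12 (adjusted p = 0.000559). At day 14, 3 of the 19 were higher in WldS, where 2.9% of all tested genes were, namely Ube2c by 0.79 ± 0.17, Bub1b by 0.67 ± 0.14 and Cenpf by 0.64 ± 0.13. Whether the mitosis genes and the replication genes differed in this was not tested.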

How the data were processed

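The authors deposited probe set values on the log2 scale, normalized between arrays. Per the submitters' processing notes, the tools were GCOS 1.4, RMA, limma and Partek, with no steps given for any of them. RNA of pooled nerves was read on 16 arrays, 2 in each of 8 groups, taken from the labels. Arrays give no counts, and their number sets the precision. Of 45101 probe sets, 34945 had 1 gene symbol in the platform's probe table and were used. A gene took its brightest probe set, which gave 18193 genes, and 14545 with a mean at or above the 30th percentile (log2 5.37) were tested.

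All 16 arrays entered a model with one mean per group, run in R 4.3.3 with limma 3.58.1 (8 residual and 5.82 prior degrees of freedom). The 19 contrasts were each later day against day 0, successive days, WldS against C57BL/6 at each time, and 5 interactions. Tests were two-sided with Benjamini-Hochberg adjustment over all tested genes within a contrast, and every adjusted p is limma's. Values after ± are standard errors. The filter is a percentile and not a measured floor, so a difference from a group below it may be understated but is no strict bound. The fit was tested on simulated data, and 27 alternatives were run, 2 of them chosen after seeing the data.

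The 43 members and all lists were chosen with earlier results of these data known. Named are, per role, the members with the largest and smallest day 3 rise in C57BL/6, any member not called there and all members called between strains, with the rest by value or range, and up to 4 called genes of each other list. Promoters came from RefSeq (GRCm38.p6) by gene symbol.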

Additional observations from a re-analysis of the deposited data

Results flagged for a closer look

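The results below are those in which the change of a member differed between the strains by the interaction test of limma, given as the WldS change minus the C57BL/6 change on the log2 scale. At day 3 against day 0 there were 3 such members, with -1.01 for Brca1, -0.88 for Rrm2 and -0.82 for E2f8. At day 7 against day 0 there was 1, E2f8 with -0.89. At day 14 against day 0 there were 2, Ccne2 with 1.13 and Rrm2 with 1.07. Between day 7 and day 14 there were 2, Rrm2 with 1.64 and Ccne2 with 1.44. Brca1 and Ccne2 lay below the filter at day 0 in both strains, so their differences against day 0 rest on changes that may be understated. The Ccne2 value between day 7 and day 14 does not use day 0. With 2 arrays in each group, no array could be tested as standing apart within its group.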

How the results depend on the processing

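The 27 alternatives were 3 other normalizations, 2 other filters, the mean of all probe sets, a replicate block, a variance trend, each of the 16 arrays left out, both arrays of high 3'/5' index left out, and, chosen after seeing the data, that index as a covariate and the brightest probe set not ending in _x_at. Counts of members higher than day 0 stayed within 1.5 times in every alternative, and leaving out 1 array gave 29 to 32, 26 to 31 and 20 to 29 in WldS and 35 to 39, 29 to 33 and 20 to 25 in C57BL/6 at days 3, 7 and 14. For the strain difference, leaving out 1 array gave 0 to 4 higher and 0 to 3 lower at day 0, 2 to 10 lower at day 3, 0 to 1 higher and 0 to 3 lower at day 7, and 2 to 6 higher at day 14. From day 3 to 7 it gave 0 to 3 lower in WldS and 6 to 21 in C57BL/6, and from day 7 to 14 0 to 3 in WldS and 5 to 16 in C57BL/6. The interactions gave 1 to 7 lower at day 3, 0 to 6 lower at day 7, 0 to 2 higher at day 14, 0 to 2 higher from day 3 to 7 and 2 to 3 higher from day 7 to 14.

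With the index as a covariate, 12 members were lower in WldS at day 3, 5 at day 7, 3 fell from day 3 to 7 in WldS and 0 had a called interaction at day 7. Without both arrays of high index, 11 were lower at day 3 and 2 fell from day 3 to 7 in WldS. Quantile normalization gave 4 lower at day 3 and 6 higher at day 14, and cyclic loess 5 higher at day 14. The mean of all probe sets gave 1 lower at day 7, 1 that fell from day 7 to 14 in WldS and 1 interaction at day 14. Probe sets not ending in _x_at gave 1 fall from day 7 to 14 in WldS, 1 interaction at day 14 and 1 from day 7 to 14, where Rrm2 was not called (0.39 at day 14 against day 0 and 1.27 from day 7 to 14). Averaged over its probe sets, Brca1 had a strain difference of -0.33 at day 3 and a WldS rise of 0.55, and without _x_at the Rrm2 difference at day 14 was 0.37 and not called. The cause of the moved counts was not tested.

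The direction turned in 3 cases, all of uncalled genes at day 3 in WldS, namely Orc1 with the mean of its probe sets (0.062) and with the covariate (0.052), and Fen1 with cyclic loess (-0.0118). The strain calls of Cdt1 and Ccne1 at day 3 and of Gins2 at day 14 were lost in 12, 14 and 16 of the 27 alternatives, and those of E2f8 in the interactions in 15 at day 3 and 13 at day 7. Same-numbered arrays showed no common deviation (28 pairs of groups, correlations from -0.58 to 0.19, 5 of them over 0.1). The lowest correlation was between WldS day 0 and WldS day 14, which hold the arrays of high 3'/5' index under different replicate numbers. The check therefore cannot exclude that the numbers pair the samples or share a batch. With the replicate block the count of interactions at day 7 was 0, and no other count of members moved by over 1.5 times.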

Other observations

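With the probe sets used here, some members did not follow the common course, and for most of them this rests on the probe set. Orc1 was called at no day in either strain with the probe set used. At day 3 in C57BL/6 it stayed uncalled in 26 of the 27 alternatives, with a difference of up to 0.35 and a lowest limma adjusted p of 0.00311. Pold1, Fen1 and Rpa2 were called at day 3 in C57BL/6 and at no other day in either strain, but the other probe sets of Fen1 and Pold1 were called at day 3 in WldS too. Hells was highest at day 14 in WldS with the probe set used (8.39 and 8.31 there, against 7.93 and 7.70 at day 0), whereas its other probe set above the filter was 2.45, 2.27 and 1.54 above day 0 at days 3, 7 and 14. Ccne1 was called in WldS at day 14 alone, with 8.54 and 8.86 there, against 7.66 and 8.50 at day 0, and it was called in C57BL/6 at all 3 days. Its other probe set was 0.57, 0.51 and 0.65 above day 0 in WldS at days 3, 7 and 14. Hells and Ccne1 were named here after their values had been seen.

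Dnmt3a, a methyltransferase that sets new DNA methylation, was lower in WldS than in C57BL/6 at day 14 by 0.78 ± 0.15 (limma adjusted p = 0.00677), whereas Dnmt1 was not called between the strains at any time. It was the 1 gene called lower of 11 replication chromatin genes, where 3.55% of all tested genes were lower. Rpa1, the large subunit of the single-strand binding protein, was higher in WldS at day 14 by 0.63 ± 0.13 (adjusted p = 0.00807), and Rpa2 was not called there. It was the 1 gene called of 25 further genes of the replication machinery tested, near the 2.9% of all tested genes that were higher.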
